A study of Mus musculus with 14 samples.

Results

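The glutamate and GABA receptor subunits are 32 genes, 21 encoding subunits of glutamate receptors and 11 encoding subunits of GABA receptors, picked by name from the 56748 genes of a brain RNA sequencing table. They comprise 4 AMPA, 5 kainate, 6 NMDA and 6 metabotropic glutamate receptor genes, 10 GABA-A subunit genes and 1 GABA-B subunit gene. The libraries were made from a hemisphere of 14 mouse pups at postnatal day 14 (P14), 1 library per pup, all labelled with the strain C57BL6/J. Of these, 8 carried the genotype labelled RIK KO (Rik-null) and 6 were labelled WT. Rik-null pups are homozygous for a small deletion in the first intron of 2310061I04Rik (Rik), which arose by chance in an embryonic stem cell clone used to target Traf7. It was bred away from the Traf7 change, and the model rests on this single spontaneous allele. The study describes the pups as littermates of either sex, but the labels do not give litters. The comparison asks how brain transcripts differ between Rik-null and WT pups at P14.

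Glutamate is the main excitatory transmitter of the brain and GABA the main inhibitory one. AMPA, kainate and NMDA receptors are cation channels, GABA-A receptors are chloride channels, and metabotropic glutamate and GABA-B receptors act through G proteins. Subunit composition changes while the brain matures. NMDA receptors rich in the juvenile subunits GluN2B (Grin2b) and GluN3A (Grin3a) give way to receptors with GluN2A (Grin2a) and, in cerebellar granule neurons, GluN2C (Grin2c). Among GABA-A receptors, the subunits encoded by Gabra2 and Gabra5 are prominent in the young brain, whereas those encoded by Gabra4 and Gabra6 come up after birth, Gabra6 in cerebellar granule neurons.

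Library totals ranged from 15183130 to 28012811 counts in Rik-null (median 20396468) and from 18102343 to 30993890 in WT (median 27737932). Rik itself had 3.06, 3.74 and 4.37 FPKM (lowest, median and highest) in the Rik-null libraries and 28.4, 30.3 and 32.5 FPKM in the WT libraries, so each library matched its genotype label. FPKM here is the count divided by the gene's length and by a scaling factor of the library, as the authors deposited it. Levels of different genes can so be set side by side, but their order rests on the single length deposited for each gene. For example, Gria2 had more counts over the 14 libraries (149483) than Grik5 (110696). Its WT median was nevertheless lower, at 28.7 FPKM against 69.9 FPKM. Labelled sex was uneven, with 7 male and 1 female pups in Rik-null and 2 male and 4 female pups in WT. WT 1 and WT 6 carried sex-linked transcripts that went against their labelled sex. Fits with labelled sex as a term, given below, used the labels as they stand, also for WT 1 and WT 6. Rik-null 5 and Rik-null 8 held growth hormone counts, with pituitary markers summing to 103.1 and 280.8 FPKM. Clustering of the libraries on 17502 autosomal genes outside the subunits parted them regardless of genotype. Set A held Rik-null 1, 6, 7 and 8 with WT 1, 4, 5 and 6, and set B held Rik-null 2, 3, 4 and 5 with WT 2 and 3. Within set A, Rik-null 1 and WT 1 formed a branch of their own (A1), and the other 6 libraries formed another (A2). The labels do not say what these sets are.

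All 32 subunit genes passed the filter on low counts, with 5342 to 161557 counts per gene over the 14 libraries. In WT brain the highest level belonged to Grik5, which encodes the high-affinity kainate subunit GluK5, with 64.4, 69.9 and 73.8 FPKM (lowest, median and highest). Gria1, encoding the AMPA subunit GluA1, followed with 51.6, 56.1 and 57.4 FPKM. Then came Grin1, the obligatory NMDA subunit, with a median of 51.1 FPKM, and Gabbr2, the GABA-B subunit that couples to G proteins, with 46.9 FPKM. Grm4, a presynaptic metabotropic receptor of granule neurons, had a WT median of 37.1 FPKM, and Gabra6 led the GABA-A subunits with 26.2, 30.2 and 41.5 FPKM. The lowest level was that of Grm8, at a WT median of 1.64 FPKM. Of the 31 neighbouring pairs in this order, 14 kept the same order in all 6 WT libraries, and in 17 the order differed between libraries. Of the 14 pairs, 7 also had WT ranges that did not overlap, namely Grik5 over Gria1, Gabbr2 over Grm4, Gabra3 over Gria3, Gabra4 over Grin2b, Grin3a over Grik4, Grik1 over Gabrg3, and Gabrg3 over Grm8. The other 7 had overlapping ranges but were in order within each library: Gria1 over Grin1, Grin1 over Gabbr2, Grm4 over Grin2c, Gabrd over Gria4, Grm2 over Grm5, Grin2b over Grik3, and Grm3 over Grm7.

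**Figure D1:**
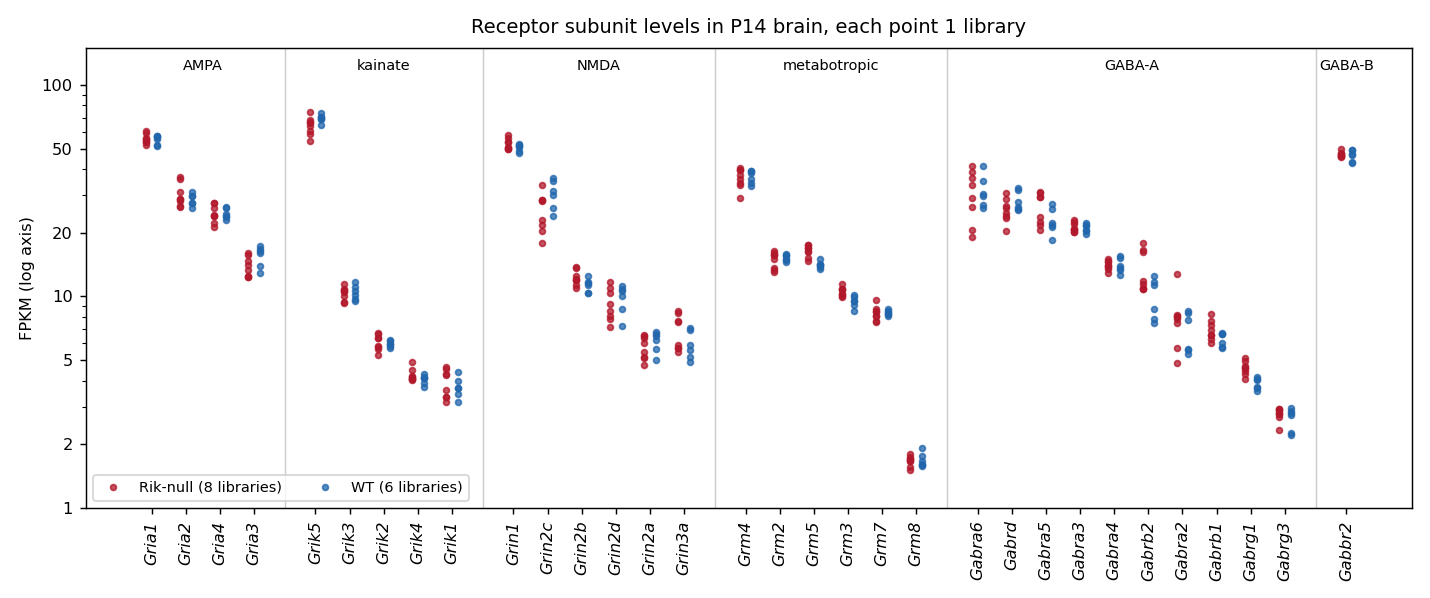
Level of each of the 32 subunit genes in FPKM (log axis), by receptor family and in the order of the WT median, with Rik-null libraries (8 red points) to the left of WT libraries (6 blue points). Levels run from Grik5 at a WT median of 69.9 FPKM down to Grm8 at 1.64 FPKM, and no gene has all its Rik-null points on a single side of all its WT points.

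Of the 32 subunits, 2 rose in Rik-null brain and 0 fell. The 2 were Grm5, the group I metabotropic receptor that couples to phospholipase C, and Gabrg1, a gamma subunit of GABA-A receptors that is also found in glia. Over all 18170 genes tested, 203 rose (1.12%) and 399 fell (2.2%) in edgeR's quasi-likelihood test, where called means a p adjusted by Benjamini-Hochberg over all genes of 0.05 or less. At an unadjusted p under 0.05, 5 subunits were positive, against 8.34% of all genes, and 3 negative, against 10.3%. DESeq2 called 3 higher, against 3.03% of its genes, and 0 lower, against 3.46%. Fitted log2 fold changes, Rik-null over WT, were positive for 18 subunits and negative for 14, with a median of 0.012 over the subunits against 0.0017 over all genes. No subunit had all its Rik-null libraries above all WT libraries, which 0.6% of all genes did, or all below, which 1.03% did. In bulk brain, fewer cells of a type and less RNA per cell cannot be told apart, and this holds for every level given here.

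Grm5 had 14.7, 16.4, 16.9, 17.5, 16.3, 15.2, 16.9 and 17.6 FPKM in Rik-null 1 to 8, against 13.7, 14.1, 14.2, 13.5, 14.0 and 14.96 FPKM in WT 1 to 6. The groups overlapped only through Rik-null 1, and 7 of 8 Rik-null libraries lay above the highest WT library. The log2 fold change was 0.22 (SE 0.045, edgeR adjusted p = 0.0148), which is 1.16-fold. It remained called whichever single library was left out, with adjusted p between 0.00539 and 0.0421. It was called in 24 of 28 alternatives. The calls lost included those with labelled sex as a term (adjusted p = 0.0763), within set A alone (0.251) and without WT 1 and WT 6 (0.0615), while the fold change stayed between 0.19 and 0.24 on the log2 scale in every alternative run.

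Gabrg1 was at a lower level, with 4.08, 4.95, 5.13, 4.57, 4.31, 4.69, 4.43 and 4.61 FPKM in Rik-null 1 to 8, against 3.56, 4.02, 4.14, 3.68, 4.07 and 3.71 FPKM in WT 1 to 6. Again 7 of 8 Rik-null libraries exceeded the highest WT library. Its log2 fold change was 0.24 (SE 0.057, edgeR adjusted p = 0.0280), or 1.18-fold. Leaving out Rik-null 2, 3 or 4 or WT 1, 4 or 6 ended the call, with adjusted p between 0.0131 and 0.0694 over the 14 libraries left out in turn. Labelled sex as a term gave an adjusted p of 0.14, the fit without WT 1 and WT 6 gave 0.178, and no filter on low counts gave 0.0518. Within set A alone it was 0.195 and within set B 0.142, and the fold change lay between 0.20 and 0.27 on the log2 scale in every alternative run.

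Grm5 and Gabrg1 are both known from astrocytes as well as neurons. Markers of astrocytes summed to between 240.2 and 257.4 FPKM in Rik-null libraries and between 209 and 217.8 FPKM in WT libraries, with no overlap. Of the 6 astrocyte markers, 5 had positive log2 fold changes, 1 (Gfap) was called higher, and none was at 0 throughout. Choroid plexus markers, 4 of 6 of which were called higher, summed to 385.6 to 489.1 FPKM in Rik-null and 265.8 to 403.5 FPKM in WT. Markers of neurons summed to 854.5 to 986.6 FPKM in Rik-null and 880.1 to 944.9 FPKM in WT. None of these 8 was called, and 5 had positive and 3 negative log2 fold changes. The part of these cell types in the differences of Grm5 and Gabrg1 was not tested.

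**Figure D2:**
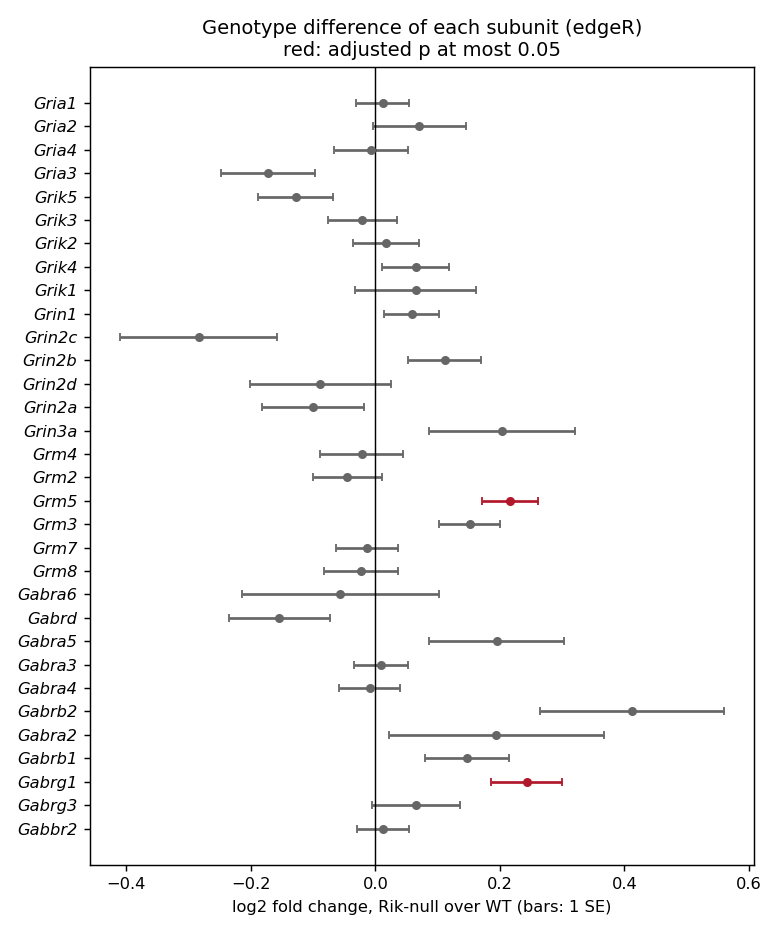
Fitted log2 fold change (Rik-null over WT) with 1 SE for each of the 32 subunits, from edgeR over 8 Rik-null and 6 WT libraries, with subunits called at an adjusted p of at most 0.05 in red. Grm5 (0.22) and Gabrg1 (0.24) are the called genes, and Gabrb2 (0.41) has a larger estimate with a wider bar.

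Among the GABA-A subunits, Gabrb2 had the largest fitted difference of all 32 genes but missed the threshold in the fit without blocks. It encodes the beta-2 subunit, which is abundant in the adult brain, and it was singled out after its values were seen. Its log2 fold change was 0.41 with an SE of 0.148 and an edgeR adjusted p of 0.137. Its level also differed between the library branches. In branch A2, Gabrb2 had 16.1, 16.6 and 17.9 FPKM in Rik-null 6, 7 and 8, against 11.4, 12.5 and 11.7 FPKM in WT 4, 5 and 6. In branch A1 it had 10.8 FPKM in Rik-null 1, against 7.79 FPKM in WT 1. In set B it had 11.4, 10.9, 11.8 and 10.8 FPKM in Rik-null 2 to 5, against 8.68 and 7.46 FPKM in WT 2 and 3. So within every branch each Rik-null library lay above each WT library, by a ratio of means of 1.39 in A1, 1.42 in A2 and 1.39 in set B, whereas across branches Rik-null 1 to 5 lay in the range of WT 4 to 6 or just below it.

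With library set as a block, Gabrb2 was called higher, with 0.48 on the log2 scale (SE 0.099, adjusted p in edgeR = 0.0058). With the 3 branches as blocks, an alternative chosen after seeing the data, the log2 fold change was again 0.48 (SE 0.039, adjusted p = 1.66e-07). It was called within set B alone (0.47, adjusted p = 0.000316) but not within set A alone (0.49, adjusted p = 0.211). These 2 blocks and set B were the 3 of 28 alternatives that called it. Over all 28 its estimate ran from 0.26 to 0.49 and its adjusted p from 1.66e-07 to 0.33, and libraries 1 to 6 of each genotype gave 0.26 (adjusted p = 0.272). Sets and branches were read from these same libraries, and branch A1 holds 1 library of each genotype, so these fits describe how the difference lies within the branches and are not an independent test of it.

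**Figure D3:**
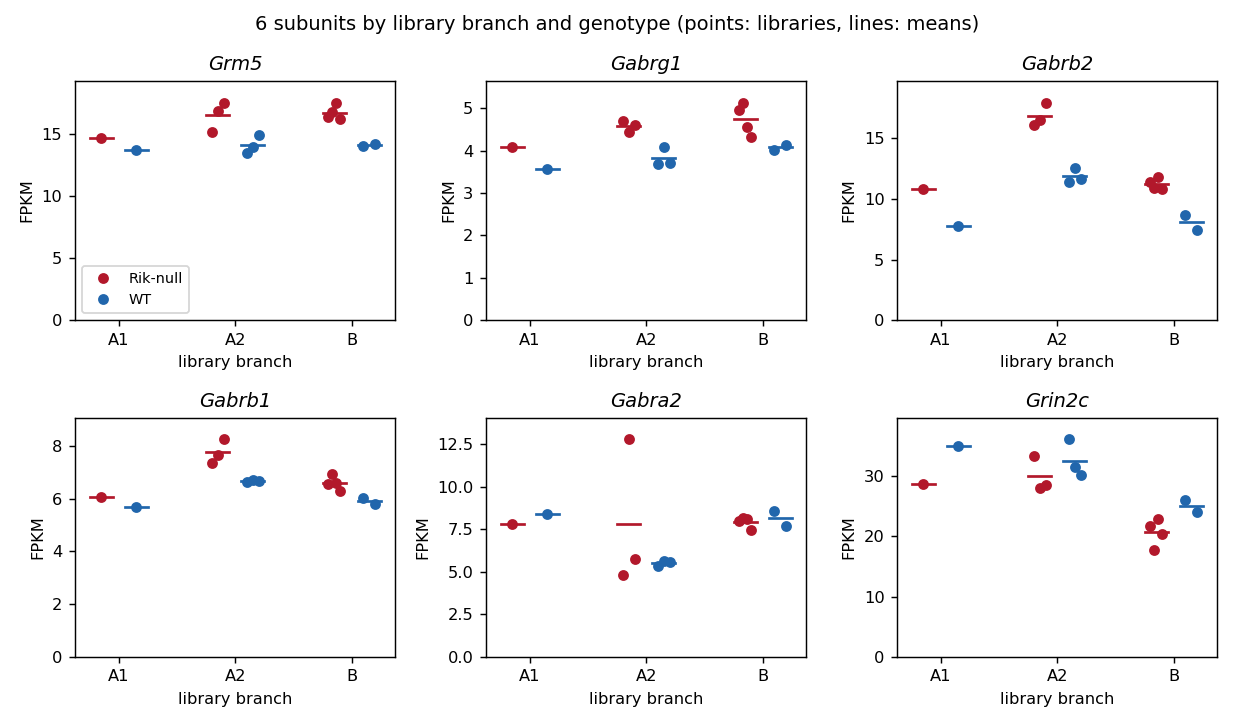
FPKM of 6 subunits in the library branches A1 (1 Rik-null, 1 WT), A2 (3 Rik-null, 3 WT) and B (4 Rik-null, 2 WT), with Rik-null in red to the left of WT in blue, points for libraries and lines for means, axes starting at 0. Gabrb2 sits higher in Rik-null within each branch (ratios 1.39, 1.42 and 1.39), and Gabra2 in A2 lies at 4.83 to 5.72 FPKM except in Rik-null 7 (12.8 FPKM).

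The RefSeq promoters of Gabrg1 and Gabrb2 are shown because these were the GABA-A subunits with the largest fitted differences. Each window runs from 250 bases before to 50 bases after an annotated start, on build GRCm38.p6, given 5′ to 3′ on the gene's strand. Capitals mark matches on either strand to a TATA box (TATAAA), a GC box (GGGCGG), the core of a cAMP response element (TGACG) and an E-box (CACGTG). Gabrg1 lies at chr5:70842568-70842867 (minus strand) and Gabrb2 at chr11:42420190-42420489 (plus strand), the first of 3 annotated starts.
Gabrg1: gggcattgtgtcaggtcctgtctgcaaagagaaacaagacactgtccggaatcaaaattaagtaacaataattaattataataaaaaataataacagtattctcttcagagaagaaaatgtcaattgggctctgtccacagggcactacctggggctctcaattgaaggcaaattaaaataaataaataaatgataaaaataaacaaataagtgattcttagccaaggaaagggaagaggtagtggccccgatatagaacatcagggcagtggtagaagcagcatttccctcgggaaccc
Gabrb2: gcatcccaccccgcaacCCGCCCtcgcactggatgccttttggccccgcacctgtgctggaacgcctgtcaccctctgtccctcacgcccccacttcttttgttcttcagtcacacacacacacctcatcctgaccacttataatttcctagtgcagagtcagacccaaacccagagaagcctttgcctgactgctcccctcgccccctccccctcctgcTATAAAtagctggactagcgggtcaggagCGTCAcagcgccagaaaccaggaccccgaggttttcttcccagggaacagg
The Gabrg1 window held no match to any of these motifs, and the Gabrb2 window shown held a TATA box, a GC box and a TGACG match. The windows of the other annotated Gabrb2 starts held no match to any of them. Of the 32 subunits, 23 had a promoter in the RefSeq table, with 30 windows among 32851 in all. A TATA box was in 3 of the 30 windows (10%), against 13.6% of all windows, and a GC box was in 15 (50%), against 35.7%. TGACG was in 4 subunit windows (13.3%), against 20.8% of all, and the E-box in 1 (3.33%), against 7.15%. These are matches of letters and say nothing of binding.

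On chromosome 5, Gabrg1, Gabra2, Gabra4 and Gabrb1 lie side by side. Gabrb1, the beta-1 subunit, had 6.05, 6.75 and 8.24 FPKM (lowest, median and highest) in Rik-null and 5.68, 6.33 and 6.71 FPKM in WT. Its fitted difference was 0.15 on the log2 scale (SE 0.067, adjusted p in edgeR = 0.249), and, chosen after its values were seen, it is named because it was called with branches as blocks (0.17, adjusted p = 0.00155), though not with library set as a block (adjusted p = 0.0645). Gabra4, an alpha subunit of extrasynaptic receptors in forebrain, had 12.8, 14.0 and 15.01 FPKM in Rik-null and 12.7, 13.8 and 15.5 FPKM in WT, with a log2 fold change of -0.01 (adjusted p = 0.944) whose sign changed with the library sets as blocks.

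Gabra2, the alpha-2 subunit of early synaptic receptors, fell into bands that crossed genotype. It had 7.81, 8.01, 8.16, 8.10, 7.47, 4.83, 12.8 and 5.72 FPKM in Rik-null 1 to 8, against 8.37, 8.55, 7.71, 5.32, 5.63 and 5.55 FPKM in WT 1 to 6. All 5 libraries under 6 FPKM were of branch A2, while the remaining library of that branch, Rik-null 7, was the highest of all 14. The log2 fold change of 0.19 (SE 0.173, adjusted p = 0.582) sums over these bands. It was 0.06 without Rik-null 7 and 0.03 with labelled sex as a term. Of its neighbours, Gabrb1 was higher in branch A2, at 7.35 to 8.24 FPKM in Rik-null and 6.63 to 6.71 FPKM in WT. Outside A2 it had 6.05 to 6.92 FPKM in Rik-null and 5.68 to 6.04 FPKM in WT. Gabra4 was higher in A2 in Rik-null (14.5 to 15.01 FPKM, against 12.8 to 14.1 FPKM outside), but its WT ranges overlapped. Gabrg1 ranges overlapped in both genotypes. Rik-null 7 did not stand apart in these genes: Rik-null 6, 7 and 8 had 7.35, 7.66 and 8.24 FPKM of Gabrb1 and 4.69, 4.43 and 4.61 FPKM of Gabrg1. Gabra2 expression is known to differ between C57BL/6 substrains, and the labels give the same strain for every pup. Whether the bands follow substrain was not tested.

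Gabra5, the alpha-5 subunit of hippocampal extrasynaptic receptors, had 20.7, 26.5 and 31.1 FPKM in Rik-null and 18.6, 22.0 and 27.4 FPKM in WT (log2 fold change 0.19, adjusted p = 0.353). Within set B its 4 Rik-null libraries had 29.4 to 31.1 FPKM, against 25.8 and 27.4 FPKM in WT, and within set A they had 20.7 to 23.6 FPKM, against 18.6 to 22.2 FPKM. With library set as a block the estimate was 0.12 (adjusted p = 0.11), and it was called with branches as blocks (0.12, adjusted p = 0.0427). Gabra6 had 19.1, 31.3 and 41.2 FPKM in Rik-null and 26.2, 30.2 and 41.5 FPKM in WT, a spread of over 2-fold in Rik-null, with a log2 fold change of -0.06 (adjusted p = 0.884) whose sign turned with library set as a block. Its ratios of means, Rik-null over WT, were 0.955 in A1, 1.14 in A2 and 0.897 in set B. Gabrd, the delta subunit that joins alpha-4 or alpha-6 outside synapses, had medians of 25.5 FPKM in Rik-null and 27.2 FPKM in WT.

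None of the 6 NMDA receptor genes was called. Grin2c had the smallest p of the family, with 17.8, 25.5 and 33.4 FPKM (lowest, median and highest) in Rik-null and 24.0, 30.8 and 36.1 FPKM in WT. Its log2 fold change was -0.28 (SE 0.126, edgeR adjusted p = 0.235), and 4 of 8 Rik-null libraries, all of set B, lay under the lowest WT library. With library set as a block it was called lower (-0.21, adjusted p = 0.0275), as it was within set B alone, where Rik-null libraries had 17.8 to 22.9 FPKM, against 24.0 and 26.0 FPKM in WT (-0.28, adjusted p = 0.0472). Within set A alone it was not called (-0.17, adjusted p = 0.347). Markers of cerebellar granule neurons, where Grin2c is concentrated, summed to 174.2 to 246 FPKM in Rik-null and 183.8 to 233.3 FPKM in WT, with none called and none at 0 throughout, so the 2 ranges overlapped almost fully. The part of granule neurons in the Grin2c values was not tested.

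Grin2b had 11, 12.1 and 13.8 FPKM in Rik-null and 10.4, 11.5 and 12.5 FPKM in WT (log2 fold change 0.11, adjusted p = 0.319). Grin2a had 4.75, 5.74 and 6.58 FPKM in Rik-null and 5.02, 6.35 and 6.75 FPKM in WT (-0.10, adjusted p = 0.546). Grin3a had 5.44, 6.75 and 8.49 FPKM in Rik-null and 4.87, 5.75 and 7.12 FPKM in WT (0.20, adjusted p = 0.373). With library set as a block the estimate of Grin3a was 0.12 (adjusted p = 0.116) and that of Grin2a -0.05 (adjusted p = 0.468). Grin2b and Grin3a thus had positive estimates and Grin2a and Grin2c negative ones, none past the threshold without blocks, and Grin2d, another early subunit, had a negative one (-0.09). Grin1 had 49.8, 52.2 and 58.2 FPKM in Rik-null and 47.7, 51.1 and 52.3 FPKM in WT (0.06, adjusted p = 0.506).

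The ratio of an adult to a juvenile subunit within a library does not depend on the scaling of that library. Grin2a over Grin2b was 0.397, 0.44 and 0.581 (lowest, median and highest) in Rik-null and 0.483, 0.535 and 0.64 in WT. Grin2c over Grin2b was 1.43, 1.99 and 2.95 in Rik-null and 2.25, 2.59 and 3.47 in WT. Grin2a over Grin3a was 0.573, 0.848 and 1.2 in Rik-null and 0.725, 1.1 and 1.37 in WT. All 3 NMDA ratios thus had a smaller median in Rik-null, with ranges that overlapped over the 14 libraries. Gabra6 over Gabra5 was 0.647, 1.18 and 1.88 in Rik-null and 0.958, 1.41 and 2.24 in WT, and Gabra4 over Gabra2, which carries the bands of Gabra2, was 1.14, 1.72 and 3.03 in Rik-null and 1.57, 2.12 and 2.91 in WT.

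Set B held 4 Rik-null and 2 WT libraries, and the ratios share subunits, so their values there are few and not separate observations. Grin2a over Grin2b was 0.397 to 0.44 in Rik-null of set B and 0.483 to 0.485 in WT of set B, and Grin2c over Grin2b was 1.43 to 1.93 in Rik-null and 2.25 to 2.31 in WT. Grin2a over Grin3a was 0.573 to 0.681 in Rik-null and 0.725 to 0.789 in WT, and Gabra6 over Gabra5 was 0.647 to 0.945 in Rik-null and 0.958 to 1.05 in WT. Gabra4 over Gabra2 went the other way, at 1.69 to 1.72 in Rik-null and 1.57 to 1.65 in WT. Inside set A all of these ratios overlapped, with medians of Grin2a over Grin2b of 0.525 in Rik-null and 0.576 in WT, and the median of Gabra6 over Gabra5 was larger in Rik-null (1.76, against 1.51 in WT). The ratios are descriptions, and no test was made of them.

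**Figure D4:**
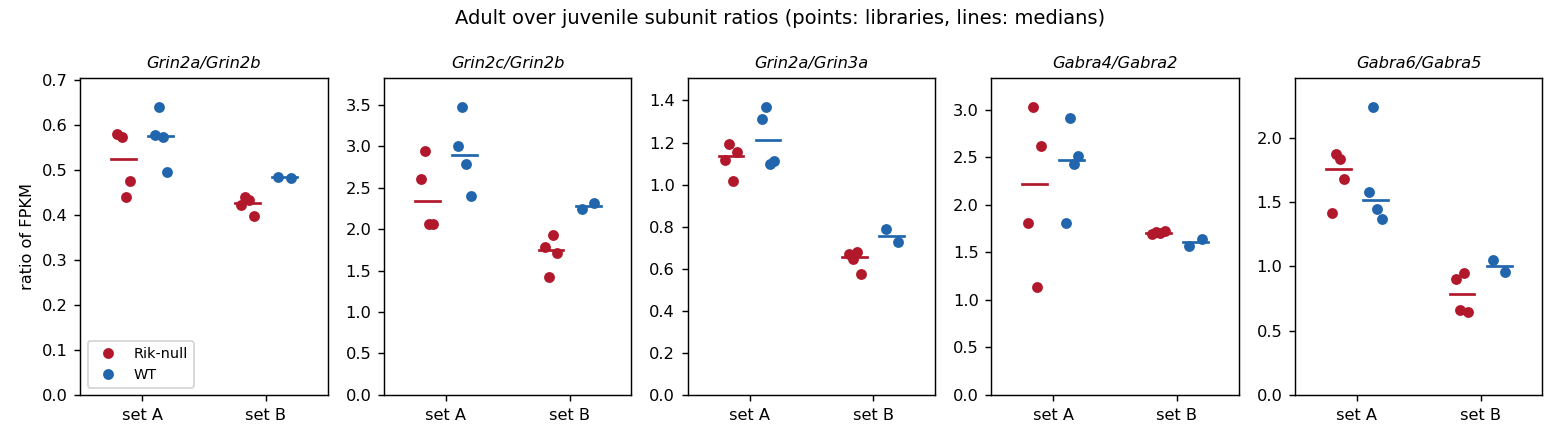
Ratio of FPKM of an adult to a juvenile subunit in each library, by library set, Rik-null in red to the left of WT in blue, with points for libraries, lines for medians and axes starting at 0. In set B, Grin2a/Grin2b is 0.397 to 0.44 in 4 Rik-null libraries and 0.483 to 0.485 in 2 WT libraries, while in set A the genotypes overlap.

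The library sets separated some subunits more widely than genotype did. In 5 of the 32, every set A library lay above every set B library, which 4.34% of all genes did: Gria3, Grin2c, Grin2a, Gabra6 and Gabrd. In 3, Grin3a, Gabra5 and Grik1, every set A library lay below every set B library, which 4.48% of all genes did. Grin3a had 5.44 to 5.91 FPKM in Rik-null of set A and 7.59 to 8.49 FPKM in Rik-null of set B, against 4.87 to 5.91 FPKM in WT of set A and 6.93 to 7.12 FPKM in WT of set B. Grin2a had 5.99 to 6.58 FPKM in Rik-null of set A and 4.75 to 5.48 FPKM in Rik-null of set B, against 6.22 to 6.75 FPKM in WT of set A and 5.02 to 5.62 FPKM in WT of set B.

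Markers of cell stages moved with the sets as well. Immature neuron markers summed to 166.3 to 248.0 FPKM in set A and 327.3 to 410.0 FPKM in set B, and dividing cell markers to 2.24 to 3.88 FPKM in set A and 6.18 to 7.63 FPKM in set B. Myelinating oligodendrocyte markers summed to 2336 to 3050 FPKM in set A and 1667 to 1906 FPKM in set B. Granule neuron markers overlapped, at 183.8 to 246.0 FPKM in set A and 174.2 to 239.1 FPKM in set B. Set B held 4 of 8 Rik-null and 2 of 6 WT libraries, so genotype was not evenly spread over the sets. The part of these cell stages in the subunit values was not tested.

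With library set as a block, 3 subunits were called higher (Gabrb2, Gabrg1 and Grm5), against 3.81% of all genes, and 2 lower (Gria3 and Grin2c), against 4.56%. With branches as blocks, 6 were called higher (Gabra5, Gabrb1, Gabrb2, Gabrg1, Grm3 and Grm5), against 8.12% of all genes, and 3 lower (Gria3, Grik5 and Grin2c), against 7.29%.

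No AMPA receptor gene was called in the fit without blocks. Gria3, an X-linked AMPA subunit, had the smallest p, with 12.3, 13.7 and 16.0 FPKM in Rik-null and 13.0, 16.2 and 17.2 FPKM in WT (log2 fold change -0.17, SE 0.075, edgeR adjusted p = 0.225). In every branch its Rik-null mean was below its WT mean, at ratios of 0.839 in A1, 0.935 in A2 and 0.938 in set B. Gria3 was called lower with library set as a block (-0.13, adjusted p = 0.0413) but not within set A (adjusted p = 0.308) or set B (0.349) alone. With labelled sex, which was uneven between the genotypes, as a term it was not called (-0.18, edgeR adjusted p = 0.422). Gria1 had 52.2, 55.3 and 60.4 FPKM in Rik-null and 51.6, 56.1 and 57.4 FPKM in WT (0.01, adjusted p = 0.916). Gria2, whose edited subunit keeps AMPA receptors impermeable to calcium, had medians of 28.8 FPKM in Rik-null and 28.7 FPKM in WT.

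Of the kainate receptor genes, Grik5 had 54.1, 65.1 and 74.4 FPKM in Rik-null and 64.4, 69.9 and 73.8 FPKM in WT (log2 fold change -0.13, SE 0.060, edgeR adjusted p = 0.262). Its 4 Rik-null libraries below the lowest WT library included all 3 of branch A2, at 54.1 to 60.5 FPKM, against 64.4 to 69.1 FPKM in WT of that branch. It was called lower with branches as blocks (-0.15, adjusted p = 0.0116) but not with library set as a block (adjusted p = 0.0678).

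Among the metabotropic receptors other than Grm5, Grm4 had 29.2, 36.6 and 40.4 FPKM in Rik-null and 33.4, 37.1 and 38.9 FPKM in WT, with a log2 fold change of -0.02 (adjusted p in edgeR = 0.895) whose sign turned with library set as a block. Grm4 lies on chromosome 17, as Rik does, with deposited gene starts 8.56 Mb apart. Grm3, a group II receptor of astrocytes and neurons, was chosen after its values were seen. It had 9.96, 10.5 and 11.4 FPKM in Rik-null and 8.57, 9.54 and 10.1 FPKM in WT, and 6 of 8 Rik-null libraries lay above the highest WT library. Its log2 fold change was 0.15 (SE 0.049, edgeR adjusted p = 0.0973), and DESeq2 gave an adjusted p of 0.0439. Gabbr2 had 45.7, 46.7 and 49.9 FPKM in Rik-null and 42.5, 46.9 and 49.4 FPKM in WT (0.01, adjusted p = 0.908).

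The remaining 13 subunits, Gria2, Gria4, Grik1, Grik2, Grik3, Grik4, Grin2d, Grm2, Grm7, Grm8, Gabra3, Gabrg3 and Gabrd, had log2 fold changes between -0.15 and 0.07. Of these 6 were positive and 7 negative, and their lowest adjusted p was 0.324. Grin2d, an early interneuron NMDA subunit, and Gabra3, an X-linked alpha subunit, are of this group.

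In 6 lists of other genes of the same synapses, 1 of 81 tested entries rose (1.23%) and 2 fell (2.47%), near the 1.12% and 2.2% of all genes. Shisa7 is entered both as an auxiliary subunit and as an inhibitory partner. Of the 5 other glutamate receptor genes 4 were tested and of the 10 other GABA receptor genes 8, with 0 called in either list and median log2 fold changes of 0.065 and 0.0099. None of the 16 glutamate receptor auxiliary subunit genes was called (median 0.0082), nor any of the 16 genes of inhibitory scaffolds and GABA receptor partners (median 0.0020), nor any of the 17 genes for synthesis, vesicle filling and uptake of the transmitters (median 0.067). Gphn, the gephyrin scaffold of inhibitory synapses, had medians of 23.5 FPKM in Rik-null and 21.3 FPKM in WT (log2 fold change 0.13, edgeR adjusted p = 0.0794). Gls2, a glutaminase, had 4.53 FPKM in Rik-null and 6.83 FPKM in WT (-0.45, adjusted p = 0.063).

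Of the 20 genes of excitatory postsynaptic scaffolds, 1 rose and 2 fell (median log2 fold change -0.015), and these were the only calls in the 6 lists, against 1.12% of all genes that rose and 2.2% that fell. Dlg2, which encodes the NMDA receptor scaffold PSD-93, had 23.3, 25.5 and 27.6 FPKM in Rik-null and 20.8, 22.3 and 23.1 FPKM in WT (0.19, SE 0.044, edgeR adjusted p = 0.0248). Pick1, which binds AMPA receptor tails, had 3.67, 3.91 and 4.14 FPKM in Rik-null and 4.30, 4.38 and 4.69 FPKM in WT, without overlap (-0.19, adjusted p = 0.0276). Grip2, another AMPA receptor binding protein, had 3.46, 3.89 and 4.11 FPKM in Rik-null and 3.86, 4.47 and 4.79 FPKM in WT (-0.22, adjusted p = 0.0388).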

How the data were processed

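RNA from a brain hemisphere of each of 14 pups was sequenced by a service laboratory. The authors deposited whole-number counts per gene, without normalization, and FPKM values, which equal the count divided by gene length and by a single factor per library. The deposited table also holds the authors' means per genotype, fold changes and p-values, which were not used. The labels name the genome build mm10. The distance between Grm4 and Rik was taken from the deposited gene starts, and the promoter windows from RefSeq on GRCm38.p6. These should not be read as sharing a single set of coordinates. The aligner, the counter and whether reads were stranded were not given in the sources used here, so overlapping or antisense reads cannot be told apart. Of identifiers sharing a name (77 names), that with the highest summed count stood for the gene.

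The quasi-likelihood test of edgeR 4.0.16, run under R 4.3.3 with genotype as its single term, was applied to the deposited counts after filterByExpr and TMM scaling, and p-values were adjusted over all 18170 genes by Benjamini-Hochberg with a threshold of 0.05. The method was tested on simulated counts that held no library sets or branches, so that test does not cover their effect. DESeq2 1.42.0, other scalings and filters, labelled sex, replicate number, library set or branch as a block, and subsets of libraries were tried. Library sets came from average-linkage clustering. The labels name each pup as a separate sample. Library totals of 15183130 to 30993890 counts limit precision.

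The subunits, gene lists and tests were chosen with earlier results of these data known. Named with full values are called subunits, juvenile and adult subunits, and in each family the most abundant in WT and that with the smallest p, plus called genes of the other lists and at most 4 per list by smallest p.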

Additional observations from a re-analysis of the deposited data

Results flagged for a closer look

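In 3 of the 64 groups of libraries (32 subunits in each genotype), the highest or lowest library stood further from its nearest neighbour, relative to the range of the group, than Dixon's 95% critical value allows. Chance flags about 1 in 20 groups. Gabra2 was at 12.8 FPKM in Rik-null 7, against 8.16 FPKM in the next highest Rik-null library, a gap of 0.58 of the range. Gabrg3 was at 2.34 FPKM in Rik-null 6, against 2.68 FPKM in the next lowest (0.55 of the range). Gabbr2 was at 49.9 FPKM in Rik-null 5, against 47.6 FPKM in the next highest (0.547 of the range), and Rik-null 5 is a library with growth hormone counts.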

How the results depend on the processing

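The number of subunits called higher, 2 without blocks, was 1 with no filter on low counts, 1 with the replicate block, 6 with library branch as a block, and 0 with labelled sex as a term, within set A, without WT 1 and WT 6, or when log2 fold changes also had to reach 1 in size. It lay between 1 and 2 when each library was left out in turn. The number called lower, 0 without blocks, was 2 with the replicate block, 2 with library set as a block, 3 with branches and 1 within set B. Over all genes, the 203 higher and 399 lower calls were 529 and 604 with DESeq2, 88 and 271 with no filter, 43 and 110 with labelled sex, 693 and 829 with library set, 1475 and 1325 with branches, 4 and 42 within set A, 302 and 274 within set B, 43 and 125 without WT 1 and WT 6, and 73 and 237 without Rik-null 5 and Rik-null 8. With single libraries left out they ran from 78 to 340 higher and from 203 to 480 lower. Replicate numbers are shared by libraries 1 to 6 of each genotype, but the numbers were not taken as pairs: correlations of the same-numbered libraries' deviations ran from -0.337 to 0.316, 4 of 6 were over 0.1, and 2 of 6 libraries correlated best with their own number. The replicate block gave 264 higher and 499 lower calls over all genes, against 174 and 483 in the same libraries without it, and it ended the call of Grm5 (0.19, adjusted p = 0.0508 in edgeR, against 0.0351 without the block) and added Gria3 (-0.24, 0.0358) and Grin2c (-0.36, 0.0473) as lower.

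Of the subunits named with full values, 6 changed sign, and the others were not examined for this. Gria1 was at -0.0016 with the replicate block and -0.0018 in those libraries without it, and between -0.0039 and 0.025 with single libraries left out. Grm4 was at 0.0021 with library set, 0.0022 with branches and 0.049 within set A (-0.047 to 0.018 with single libraries left out). Gabra4 was at 0.013 with library set and with branches, 0.047 within set B and 0.016 without WT 1 and WT 6 (-0.033 to 0.022). Gabra6 was at 0.011, 0.013 and 0.12 with library set, with branches and within set A (-0.13 to 0.038). Gabbr2 was at -0.027 within set A and -0.0045 without Rik-null 5 and Rik-null 8 (-0.0083 to 0.031), and Gabra2, at 0.19 over all libraries, was at -0.043 within set B (0.062 to 0.27). The cause of these changes was not tested. Scaling to TMM-adjusted CPM in place of FPKM left 0 subunits with genotypes fully apart.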
